A study of Arabidopsis thaliana with 15 samples.

Results

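A group of 65 nuclear genes of Arabidopsis thaliana was chosen by its level in seedlings given 100 µM cercosporin. For each gene, the mean of the 3 libraries at 100 µM plus 5, divided by the mean of the other 12 libraries plus 5, had to be 8 or more on the authors' normalized counts. The 65 genes are 0.461% of the 14103 nuclear genes in the deposited table, which holds 14190 genes in all. Because the contrast of 100 µM with the rest chose them, their high level at that dose is a description and carries no test. Tests cover differences among the 4 other groups, of which the rule used only the joint mean, and relatives outside the 65. A gene raised at a lower dose has a higher joint mean and was less likely to be picked. Few calls or no climb below 100 µM are therefore partly set by the rule. Relatives that met the rule are among the 65 and are not counted as relatives.

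Whole seedlings of the wild type ecotype Col-0, 2 weeks old, were profiled by bulk MARS-seq, which counts reads from the 3' ends of transcripts. Each of 5 groups held 3 libraries: controls with no agent, and cercosporin at 0.1, 1, 10 or 100 µM. All seedlings had grown on medium with sucrose and were moved to water in plates. Treated seedlings then stood 1 h in the toxin in darkness, were washed 3 times and stood in light of 30 µE for 30 min, while the control plates stayed in light throughout. Comparisons with the controls therefore hold toxin, darkness and washing together, and comparisons between doses share 1 light regime. Separate cultures are not stated for the replicates, and a p-value here reflects only how far these libraries scatter, for technical or other reasons. In whole seedlings, fewer cells of a type and less RNA per cell cannot be told apart.

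Cercosporin is a photosensitizer made by Cercospora fungi: in light it passes energy to oxygen and yields singlet oxygen and other reactive oxygen species, which damage membranes. Plant cells answer to darkness and sugar shortage with a well known set of transcripts for the breakdown of amino acids, sugars and proteins, most of which sugar and light repress. Nuclear genes for photosystem I, respiration and ribosomes usually occur as small families whose members differ in when and where they are expressed.

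Library totals lay between 834190 and 4554702 counts. The 3 libraries at 100 µM differed among themselves: RBCS1A, the Rubisco small subunit gene among 5 mesophyll markers, read 5276 CPM (counts scaled to library size) in replicate 1 against 16550 and 17152 CPM in replicates 2 and 3. The summed mesophyll markers lay at 7070 to 20333 CPM at 100 µM and at 17086 to 22398 CPM in the controls, and the 5 root markers of 6 in the table at 79.5 to 167 CPM and 69.5 to 94.7 CPM. Of the 3 senescence markers present, 2 were higher at 100 µM, of 5 mesophyll markers 2 and of 4 root markers tested 2, while the 1 guard cell marker was lower. In the edgeR comparison with the controls, 18.1% of all genes tested were called higher at 100 µM and 14.6% lower. SAG13, the senescence marker not called, read 13.7 to 23.9 CPM at 100 µM and 20.9 to 84.6 CPM in the controls. The single seed marker and the single flower marker in the table stayed at or below 3.83 CPM in every library. Chloroplast transcripts took 0.205 to 0.248% of counts at 100 µM and 0.358 to 0.688% elsewhere, and mitochondrial transcripts 0.312 to 0.438% against 0.771 to 1.45%. The sample codes of all 100 µM libraries start with the digit 1 and those of the other 12 with 7 or 8. What the digit stands for is not in the labels, so the dose and that digit cannot be told apart. The part of these differences in the levels below was not tested.

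The ratio of the rule ran from 8.07 to 19.2, with a median of 9.48. Just inside the limit were AT2G47380 at 8.15, WRKY26 at 8.10 and PPa1 at 8.07, and just outside it ACR9 at 7.98, OMT1 at 7.88 and AT5G43460 at 7.83. Mean levels at 100 µM lay between 46.1 and 1990.3 normalized counts, with a median of 115.6, and the mean over the other 12 libraries lay between 1.25 and 198, with a median of 7.56. In those 12 libraries 24 genes averaged under 5 normalized counts, 31 between 5 and 20 and 10 at 20 or more, and 23 genes had 0 in at least 1 library. Summed raw counts were 98 to 5283 per gene at 100 µM and 15 to 2877 over the other 12 libraries. Counts were not filtered on molecular identifiers, so counting error is larger than these totals imply.

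**Figure D1:**
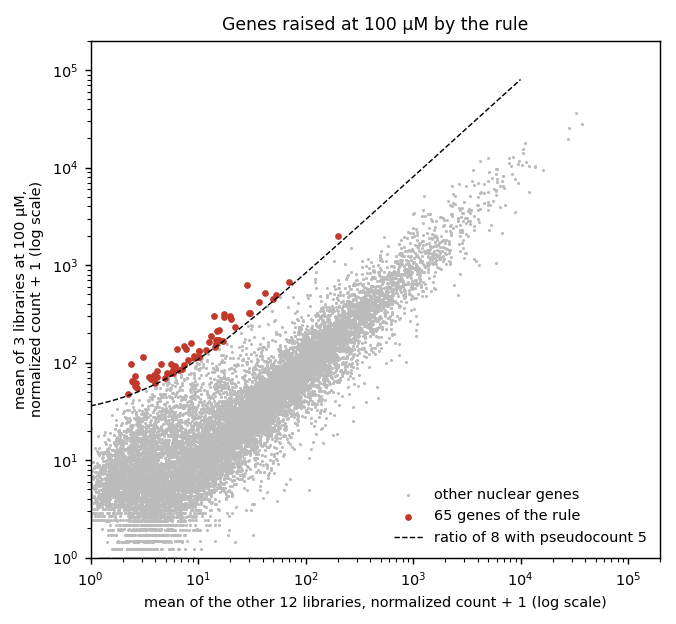
Mean normalized count + 1 of the 3 libraries at 100 µM (vertical axis, log scale) against that of the other 12 libraries (horizontal axis, log scale) for every nuclear gene; the dashed line marks the ratio of 8 with a pseudocount of 5. The 65 genes (red) lie on or above the line, and their mean over the other 12 libraries does not exceed 198 normalized counts.

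In all 65 genes the lowest 100 µM library stood above the highest of the other 12, by 2.71 to 22.8 times with a median of 7.14. The same held for 2300 of the 14103 nuclear genes, or 16.3%. The rule largely fixes that separation in the 65, so nothing is read from it. In the narrower comparison with the controls, edgeR called 18.1% of 10374 genes tested higher at 100 µM and 14.6% lower. The 3 libraries at 100 µM lay within 1.5 times of each other for 39 genes and within 2 times for 60. Replicate 1 held the highest value in 33 genes, replicate 2 in 20 and replicate 3 in 12; among the 4875 nuclear genes with a 100 µM mean as high as that of the lowest of the 65 the shares were 45.6, 31.98 and 22.4%. The widest spread at 100 µM was that of AT3G14280, with 114, 27.2 and 78.2, followed by PDE329, with 47.9, 69.1 and 21.3. Without replicate 1 the rule picked 59 genes, 54 of them among the 65.

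**Figure D2:**
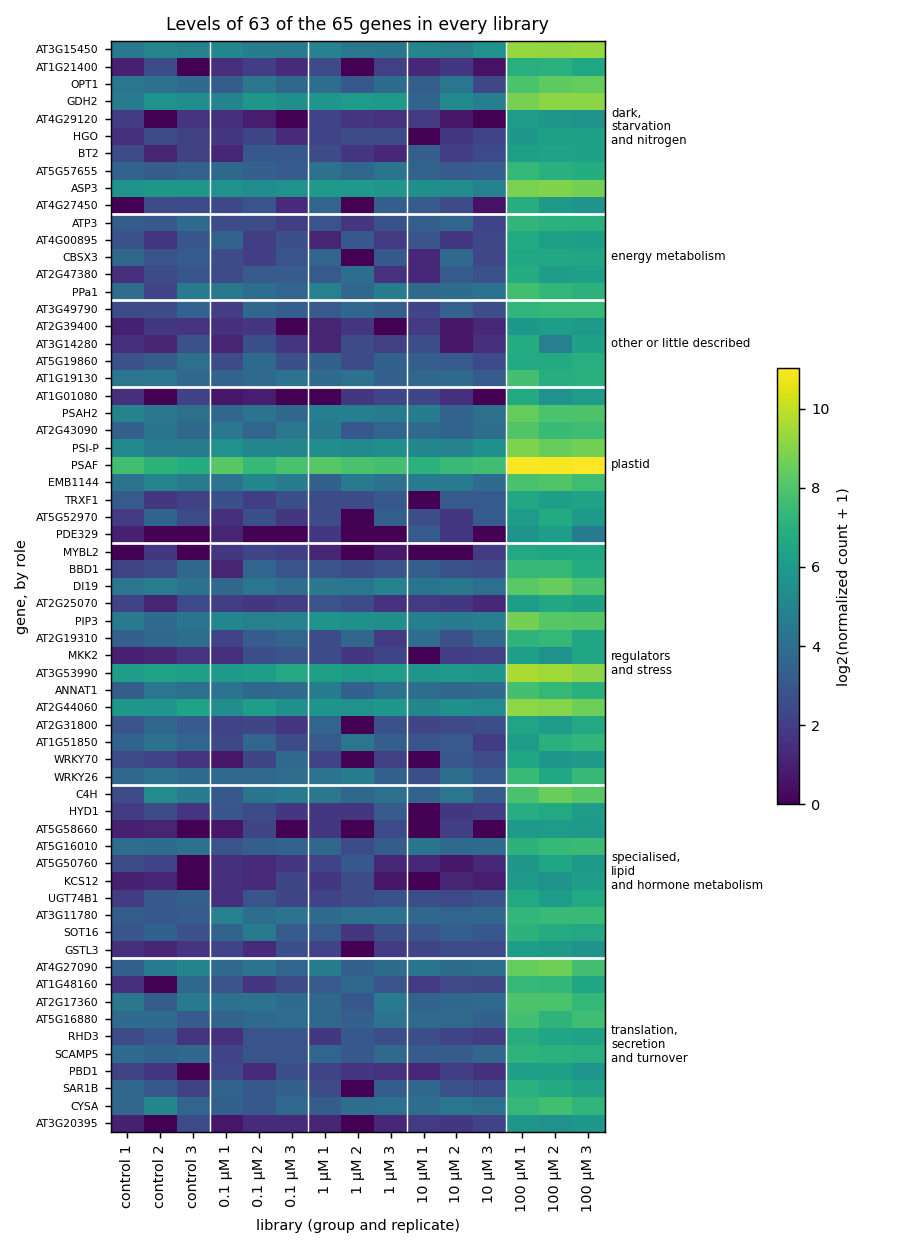
Level of 63 of the 65 genes (rows, by role) in each of the 15 libraries (columns, by group and replicate), as the log2 of the normalized count + 1 in colour. The 3 columns of 100 µM are bright in every row, and the other 12 columns show no group that is bright throughout.

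Taken as 1 pool, the 65 genes held 0.0467% ± 0.00289 of nuclear counts in the controls (SD, n = 3 per group). The share was 0.0473% ± 0.00187 at 0.1 µM, 0.0535% ± 0.00204 at 1 µM and 0.0415% ± 0.00280 at 10 µM. At 100 µM it was 0.610% ± 0.0387, with 0.654, 0.594 and 0.581% in the 3 libraries. The 3 lower doses thus lay on both sides of the controls and showed no steady climb towards 100 µM. The rule worked against such a climb, since a gene raised at a lower dose has a higher mean over the other libraries.

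By roles assigned from the annotation after the names were seen, 10 genes belong to darkness, starvation and nitrogen, 9 to plastids, 5 to energy metabolism, 11 to translation, secretion and turnover, 11 to specialised, lipid and hormone metabolism, and 14 to regulators and stress proteins. The remaining 5 are little described. A sort by words in the RefSeq product names into 18 classes placed 27 of the 65 in 12 classes and 38 in none. The shares that follow are over all nuclear genes, of which only 4875 had a 100 µM mean as high as the lowest of the 65. Class shares within those 4875 are not given here. Protein kinases and phosphatases held 4 of the 65, against 7.13% of nuclear genes, and photosynthesis 4, against 0.752%. Transcription factors, amino acid and nitrogen metabolism, and redox and detoxification held 3 each, against 5.69, 0.893 and 2.86% of nuclear genes. The classes of arabinogalactan proteins, cell wall proteins, endoplasmic reticulum folding, proteolysis and senescence, histones, and defence held 0. In that order they make up 0.291, 2.11, 0.695, 3.97, 0.688 and 0.964% of nuclear genes, so 0 among 65 says little. A count of 0 here means only that no product name matched the words of the class. PBD1, CYSA and AT3G20395, given below under protein turnover, and BBD1, given as a nuclease of basal defence, matched neither of those classes.

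The largest ratio belonged to AT3G15450, an aluminium-induced family protein whose transcript is a known marker of darkness and sugar starvation. It read 621, 599 and 639.9 normalized counts in replicates 1, 2 and 3 at 100 µM. The controls read 20.9, 33.9 and 28.1, 0.1 µM 33.3, 23.7 and 21.4, 1 µM 28.4, 19.00 and 18.4 and 10 µM 31.5, 26.7 and 46.2. The 4 lower groups overlapped, and all 3 libraries at 100 µM lay close together above them. Its relative AT4G27450, of the same family, read 115, 62.9 and 51.2 at 100 µM and 0 to 11.1 (median 4.67) in the other 12 libraries, so here replicate 1 was well above the other 2.

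Several of the starvation genes take part in amino acid breakdown. GDH2 (AT5G07440), a glutamate dehydrogenase that releases ammonium and carbon skeletons from glutamate, read 434, 557 and 547 normalized counts at 100 µM. Its controls read 21.9, 49.6 and 41.6, 0.1 µM 29.7, 55.4 and 43.6, 1 µM 53.1, 66.5 and 61.9 and 10 µM 10.5, 36.7 and 26.1. By mean, 1 µM was the highest of the lower groups and 10 µM the lowest, and the libraries of those 2 groups did not overlap. AT1G21400, the E1 alpha subunit of the branched-chain keto acid dehydrogenase, stood at 119, 129.9 and 92.4 against 0 to 4.94 (median 1.70) elsewhere. ASP3, a peroxisomal aspartate aminotransferase, stood at 447, 492 and 419 against 27.9 to 61.8 (median 48.3). HGO, which opens the ring of homogentisate in tyrosine breakdown, stood at 57.5, 75.4 and 75.4 against 0 to 4.84 (median 3.51). In each of these 3 genes the highest 100 µM library was less than 1.5 times the lowest.

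A transporter, a regulator and 2 genes annotated as enzymes complete that role. OPT1, an oligopeptide transporter, read 237, 312 and 339.8 normalized counts at 100 µM and 4.11 to 19.8 (median 13.7) in the other 12 libraries. BT2, a BTB and TAZ domain protein whose transcript responds to sugar and nitrate, read 75.3, 79.6 and 78.2 against 1.21 to 9.18 (median 3.97), the closest agreement among the 3 libraries at 100 µM of any of the 65. AT5G57655, annotated as a xylose isomerase, read 163, 126 and 111 against 7.92 to 17.8 (median 10.3). AT4G29120, of the 6-phosphogluconate dehydrogenase family, read 64.4, 56.6 and 49.1 against 0 to 3.70 (median 1.90).

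Promoters of 3 of the genes are shown because AT3G15450 had the largest ratio and GDH2 and PIP3 were called between lower groups in at least 1 of the fits given further on. Each run holds 250 bases before and 50 after the annotated start in RefSeq TAIR10.1, on the plus strand of chromosome 3, 5 and 4 respectively. Capitals mark matches, on either strand, to the motifs searched, which are given after the sequences.
AT3G15450: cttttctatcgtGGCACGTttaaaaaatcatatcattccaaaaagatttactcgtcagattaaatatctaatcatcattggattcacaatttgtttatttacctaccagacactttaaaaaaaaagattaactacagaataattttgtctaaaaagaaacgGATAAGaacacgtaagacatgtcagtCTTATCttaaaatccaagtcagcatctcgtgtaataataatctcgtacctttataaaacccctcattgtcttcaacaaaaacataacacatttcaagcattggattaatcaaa
GDH2: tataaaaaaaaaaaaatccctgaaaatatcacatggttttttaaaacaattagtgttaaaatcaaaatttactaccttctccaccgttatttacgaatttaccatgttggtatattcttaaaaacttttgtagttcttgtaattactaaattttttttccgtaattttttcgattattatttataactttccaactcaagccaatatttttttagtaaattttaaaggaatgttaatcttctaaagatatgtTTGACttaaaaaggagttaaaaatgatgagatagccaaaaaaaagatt
PIP3: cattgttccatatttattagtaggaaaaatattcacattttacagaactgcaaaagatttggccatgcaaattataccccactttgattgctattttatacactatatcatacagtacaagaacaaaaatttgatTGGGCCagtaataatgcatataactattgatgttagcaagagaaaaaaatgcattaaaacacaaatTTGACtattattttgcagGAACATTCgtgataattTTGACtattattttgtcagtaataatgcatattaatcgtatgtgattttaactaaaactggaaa
In AT3G15450 the capitals are 1 ABRE core (ACGTGNC) and 2 I-box cores (GATAAG), in GDH2 1 W-box core (TTGAC), and in PIP3 2 W-box cores, 1 heat shock element (GAANNTTC) and 1 site II element (TGGGCC). The I-box core stood in 21.5% of the 65 promoters and in 15.2% of all 14103 promoters of that length. The sugar starvation element (TATCCA) stood in 21.5 and 17.2%, the site II element in 21.5 and 18.9%, the ABRE core in 13.8 and 11.8%, the heat shock element in 10.8 and 11.1%, and the W-box core in 50.8 and 51.3%. Also searched were the G-box (CACGTG, 10.8 and 8.93%), which overlaps the ABRE core where the letters run on, the UPRE core (CCACGTCA, 3.08 and 2.06%), the telo-box (AAACCCTA, 4.62 and 5.05%) and the GCC box (GCCGCC, 4.62 and 2.74%). The DRE core (GCCGAC) stood in 3.08 and 3.77%, the evening element (AAAATATCT) in 3.08 and 3.05%, the CAMTA box (ACGCGT) in 1.54 and 2.56% and the TGA element (TGACGTCA) in 1.54 and 0.688%. These shares are descriptions, and a match is a run of letters only.

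Among plastid genes, PSAF (AT1G31330) held the most counts at 100 µM. It encodes the photosystem I subunit that docks plastocyanin, and it read 1979.6, 1911 and 2080.3 normalized counts. Its controls read 204, 139 and 111, 0.1 µM 287, 165 and 234, 1 µM 285, 230.4 and 216 and 10 µM 136, 175 and 196. The 1 µM libraries lay above those of the controls and of 10 µM, and those of 0.1 µM overlapped with every other lower group. PSAH2, a photosystem I subunit on the side where the light-harvesting complex II docks in state transitions, read 345, 237 and 248 against 9.95 to 29.5 (median 18.98). PSI-P, a thylakoid protein also known as CURT1B that bends membranes at grana margins, read 478, 354 and 406 against 22.97 to 47.2 (median 35.6). Replicate 1, which was low for RBCS1A, was the highest of the 3 for PSAH2 and PSI-P.

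Photosystem I genes outside the 65 were mostly not called. Of 14 genes tested that the product names give as photosystem I, 3 were among the 65. These 3 include PSI-P, counted for its product name although it is the CURT1B protein described above. Of the other 11, edgeR called 3 higher and 0 lower at 100 µM than in the controls, beside a background of 18.1 and 14.6%. The 3 called higher were PSAD-2 (log2 change 1.10 ± 0.16, SE), AT1G49975 (2.13 ± 0.49) and PSAN (1.17 ± 0.39). Changes of the 11 ran from -0.46 to 2.13. In the wider photosynthesis class 26 of the other 95 genes tested were higher and 6 lower, with a median of 0.14 against -0.02 over all genes. The lower ones were 3 without control replicate 3 and 11 without control replicate 2.

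**Figure D3:**
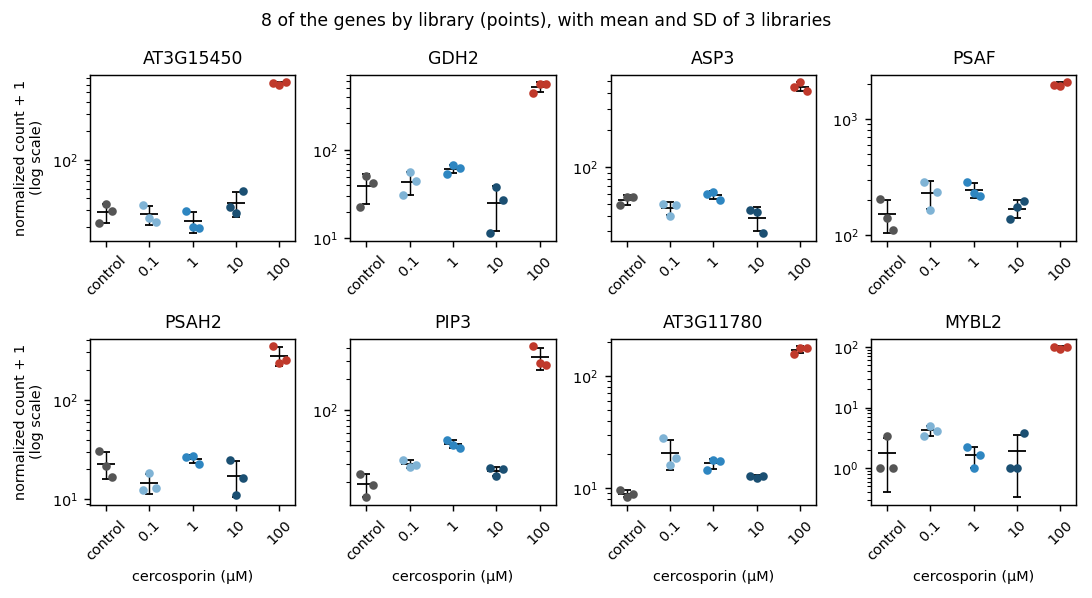
Normalized count + 1 (vertical axis, log scale) of 8 of the genes in each library, by cercosporin dose (horizontal axis, in µM); points are libraries and bars the mean ± SD of 3. The 100 µM points of PSAF lie near 1990 normalized counts and those of PIP3 at 272 to 418, each above every other library of that gene.

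The remaining plastid genes cover stroma and lumen. TRXF1, an f-type thioredoxin that activates Calvin cycle enzymes, read 97.3, 69.1 and 81.8 normalized counts at 100 µM and 0 to 7.77 (median 5.19) in the other 12 libraries. AT2G43090, a small subunit of isopropylmalate isomerase in leucine synthesis, read 259, 178 and 194 against 7.13 to 20.98 (median 12.7). EMB1144, chorismate synthase of the shikimate pathway, read 233, 264 and 194 against 9.87 to 34.8 (median 21.6). The thylakoid lumen protein gene AT5G52970 read 65.8, 105 and 59.7 against 0 to 10.9 (median 4.72), and the RNA-binding protein gene AT1G01080 107, 46.1 and 64.7 against 0 to 3.95 (median 1.33). The plastid genes were highest in replicate 1 in 5 of 9 cases, beside 45.6% of nuclear genes with as high a 100 µM mean as the 65. They were lowest there in 0 cases, beside 12 of all 65 genes.

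The 5 energy genes were all highest in replicate 1. ATP3, the gamma subunit in the rotor of the mitochondrial ATP synthase, read 153, 132 and 128 normalized counts at 100 µM against 2.38 to 13.5 (median 6.05) elsewhere. AT4G00895, annotated as an OSCP/delta subunit protein of an F1 ATPase, read 107, 75.4 and 68.96 against 1.23 to 10.3 (median 4.83). AT2G47380, cytochrome c oxidase subunit Vc, read 114, 69.1 and 73.2 against 1.31 to 14.3 (median 6.34). CBSX3, a mitochondrial CBS domain protein that acts on thioredoxin, read 95.9, 94.3 and 88.9 against 0 to 12.4 (median 6.19). PPa1, a soluble inorganic pyrophosphatase, read 207, 155 and 134 against 3.63 to 27.1 (median 14.6). Of the other 114 genes tested in the respiration and mitochondria class, 24 were higher and 7 lower at 100 µM than in the controls, beside 18.1 and 14.6% of all genes.

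In translation, secretion and turnover the largest ratio was that of AT4G27090, ribosomal protein L14 of the large subunit. It read 344, 389.7 and 213 normalized counts at 100 µM. Its controls read 9.51, 21.8 and 30.3, 0.1 µM 12.7, 17.4 and 11.1, 1 µM 23.4, 9.50 and 13.8 and 10 µM 18.4, 13.7 and 14.6. Replicate 3 was thus the lowest of the libraries at 100 µM, and the lower groups overlapped. AT2G17360, a small subunit protein of the S4 family, read 245, 241 and 159.97 against 7.13 to 23.04 (median 13.1). Its 3' end is nearly identical to that of AT5G07090, so reads may be split between both and its level is uncertain. Of the other 225 ribosomal protein genes tested, 26 were higher and 51 lower at 100 µM, beside 18.1 and 14.6% of all genes, with a median log2 change of -0.24.

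Genes of the secretory pathway form most of the rest of this role. AT1G48160, the SRP19 subunit of the signal recognition particle, read 160.3, 155 and 91.7 normalized counts at 100 µM against 0 to 12.4 (median 4.55). SAR1B, the GTPase that starts COPII coats, read 130.1, 105 and 79.6 against 0 to 11.8 (median 7.19). RHD3, a GTPase that shapes the endoplasmic reticulum and is needed for root hair growth, read 115, 92.2 and 81.1 against 1.82 to 7.25 (median 5.0). SCAMP5, a secretory carrier membrane protein, read 142, 129.9 and 119 against 3.63 to 13.3 (median 9.48). AT5G16880, a relative of the sorting protein TOM1, read 212, 145 and 198 against 7.87 to 17.1 (median 12.9). None of these genes was lowest in replicate 1, which held for all 11 of the role.

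Protein turnover is represented by 3 genes. CYSA, a cystatin that inhibits cysteine proteases, read 159, 205 and 149 normalized counts at 100 µM against 7.12 to 33.9 (median 13.5). PBD1, a beta subunit of the 20S proteasome, read 72.6, 75.4 and 53.3 against 0 to 5.55 (median 2.40). The RING protein gene AT3G20395 read 56.2, 46.1 and 57.6 against 0 to 4.49 (median 1.45).

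Specialised metabolism was led by C4H, cinnamate 4-hydroxylase of the phenylpropanoid pathway. It read 233, 358 and 284 normalized counts at 100 µM and 4.75 to 38.7 (median 16.99) in the other 12 libraries, the highest of these being control replicate 2. UGT74B1 and SOT16 act in the last steps of glucosinolate core synthesis. UGT74B1 read 104, 64.96 and 107 against 1.82 to 8.99 (median 5.0), and SOT16 138, 109 and 99.5 against 2.38 to 21.4 (median 7.13).

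Lipid and hormone genes make up the rest of this role. HYD1, a sterol isomerase, read 116, 103 and 65.4 normalized counts at 100 µM against 0 to 7.90 (median 2.62). KCS12, a 3-ketoacyl-CoA synthase that elongates very long chain fatty acids, read 58.9, 50.3 and 71.8 against 0 to 4.75 (median 1.23). AT5G58660, of the 2-oxoglutarate dependent oxygenases, read 61.6, 67.1 and 60.4 against 0 to 4.61 (median 0.778), with 0 in 5 of the libraries. AT5G16010, a steroid dehydrogenase family gene, read 139.7, 166 and 183 against 4.75 to 18.4 (median 12.4). GSTL3, a lambda class glutathione transferase, read 69.9, 62.9 and 49.1 against 0 to 5.55 (median 3.13), and the SAUR family gene AT5G50760 56.2, 92.2 and 62.6 against 0 to 7.13 (median 1.70). The libraries at 100 µM lay closest together for AT5G58660 among these genes.

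AT3G11780, whose product carries an ML lipid recognition domain, read 158, 178 and 178 normalized counts at 100 µM. Its controls read 8.56, 7.25 and 7.87, 0.1 µM 26.7, 15.03 and 17.4, 1 µM 13.6, 16.6 and 16.5 and 10 µM 11.8, 11.2 and 11.9. Every treated library therefore stood above every control library.

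Of the regulators, MYBL2, a small MYB protein that represses anthocyanin synthesis, had the largest ratio, 15.8. It read 100.01, 90.1 and 98.1 normalized counts at 100 µM and 0 to 3.95 (median 0.946) in the other 12 libraries, with 0 in 5 of them. WRKY70, a WRKY factor between salicylate and jasmonate signalling, read 89.05, 56.6 and 61.9 against 0 to 12.7 (median 3.66), and WRKY26, one of the WRKY factors of heat tolerance, 174, 94.3 and 165 against 5.25 to 23.8 (median 13.1). DI19, a drought-induced zinc finger protein, read 296, 356 and 238 against 11.5 to 29.6 (median 18.99). BBD1, a nuclease of basal defence, read 159, 168 and 112 against 1.21 to 12.4 (median 5.88). Of the other 605 genes in the transcription factor class that were tested, 95 were higher and 109 lower at 100 µM than in the controls, beside 18.1 and 14.6% of all genes.

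Signalling enzymes were MKK2, a MAP kinase kinase of cold and salt signalling, with 72.6, 48.2 and 88.9 normalized counts at 100 µM against 0 to 6.34 (median 2.74), and a type 2C protein phosphatase. The phosphatase gene, AT2G25070, read 71.2, 94.3 and 77.5 against 1.21 to 6.17 (median 2.83). AT2G31800, an integrin-linked type kinase, read 84.9, 67.1 and 99.5 against 0 to 12.1 (median 4.69). The receptor-like kinase gene AT1G51850 read 65.8, 126 and 151 against 2.74 to 19.00 (median 8.34), so its lowest 100 µM library, replicate 1, came within 4 times of the highest other library. Among the other 721 kinase and phosphatase genes tested, 103 were higher and 108 lower, beside 18.1 and 14.6% of all genes.

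Stress proteins included AT3G53990, of the universal stress protein type, with 779.5, 699.9 and 545 normalized counts at 100 µM against 52.5 to 98.2 (median 68.6). AT2G44060, a late embryogenesis abundant protein of group 2, read 560.3, 526 and 383 against 32.8 to 84.3 (median 50.2). ANNAT1, a calcium-binding annexin of stress responses, read 216, 161 and 125 against 8.56 to 24.7 (median 13.8), and the small heat shock protein gene AT2G19310 141, 159 and 91.00 against 2.63 to 14.6 (median 10.3). In AT3G53990, AT2G44060 and ANNAT1 replicate 1 was the highest and replicate 3 the lowest of the libraries at 100 µM.

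PIP3 (AT4G35100), a plasma membrane aquaporin that lets water through, read 418, 285 and 272 normalized counts at 100 µM. Its controls read 22.8, 13.3 and 17.98, 0.1 µM 32.1, 26.9 and 28.5, 1 µM 50.6, 45.1 and 42.1 and 10 µM 26.2, 21.8 and 25.6. The 1 µM libraries stood above every library of the 3 other lower groups, and the control libraries overlapped with those of 10 µM. Of the other 21 aquaporin genes tested, 6 were higher and 5 lower at 100 µM than in the controls, beside 18.1 and 14.6% of all genes, and 10 passed no threshold. Those higher were RD28 (0.67 ± 0.21), PIP1B (0.62 ± 0.17), PIP1A (1.43 ± 0.16), SIP1A (2.20 ± 0.49), SIP2;1 (2.04 ± 0.47) and BETA-TIP (2.47 ± 0.65). RD28 has a near-identical 3' end in another gene, so its reads may be split and its change is uncertain. Those lower were TIP4;1, GAMMA-TIP, PIP2E, PIP1;4 and TIP2;2, from -1.36 to -0.59; without control replicate 3 or without 100 µM replicate 2, 3 aquaporin genes were lower.

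The 5 little described genes were AT3G49790, annotated as a carbohydrate-binding protein, AT2G39400, an alpha/beta hydrolase, AT5G19860, a DUF538 protein, AT1G19130, an RmlC-like protein, and AT3G14280. The product name of AT3G14280 is that of a diaminopimelate aminotransferase. AT3G49790 had the largest ratio of them, 12.9, with 147, 163 and 162 normalized counts at 100 µM against 3.03 to 11.9 (median 8.06).

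Below 100 µM, calls were rare over all genes, at most 0.887% in the edgeR fit of all 15 libraries. Few calls among the 65 therefore say little about them. All 65 passed the filter on low counts in the fit of all 15 libraries, which tested 10374 genes. That filter saw the 100 µM libraries, where these genes are high. With the filter and the fit on the 12 other libraries, 37 of the 65 were among the 9716 genes tested, so the other 28 are in the counts that follow but did not pass it without 100 µM. At 0.1 µM against the controls edgeR called 0 of the 65, beside 0% of all genes tested, and at 10 µM 0, beside 0.00964%. At 1 µM it called 1, PIP3, beside 0.183%. Between doses it called 0 of the 65 for 1 against 0.1 µM, beside 0%, 0 for 10 against 0.1 µM, beside 0.106%, and 0 for 10 against 1 µM, beside 0.887%. The slope on log10 dose from 0.1 to 10 µM, in which 36 of the 65 were tested among 9653 genes, was called in 0 of them, beside 0%. At an unadjusted p under 0.05 the numbers of the 65 were 10, 4 and 6 for 0.1, 10 and 1 µM against the controls. That is 15.4, 6.15 and 9.23% of them, beside 5.52, 5.40 and 6.38% of all genes. They were 6, or 9.23%, in each of the 3 comparisons between doses, beside 6.63, 6.53 and 11.1%, and 2 for the slope, beside 7.44%. Of the 37 genes, the fit of 12 libraries called 1 at 1 µM against the controls, beside 0.576% of all genes, and 1 for 10 against 1 µM, beside 2.39%. In both cases the gene was PIP3, and the 4 other comparisons gave 0 of 37.

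DESeq2 called 1 of the 65 at 1 µM against the controls, PIP3, beside 0.864% of the genes to which it gave an adjusted p. For 10 against 1 µM it called 1, GDH2, beside 3.02%. It called 0 of the 65 at 0.1 and at 10 µM against the controls, beside 0.0503 and 0.0386%, and 0 for 1 and for 10 against 0.1 µM, beside 0.194 and 0.415%. DESeq2 gave an adjusted p to 24 to 65 of the 65, depending on the comparison.

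PIP3 rose at 1 µM by 1.33 ± 0.26 on the log2 scale (SE; edgeR adjusted p = 0.0488), with all 3 libraries above all 3 controls. Its call did not hold when any 1 of the 6 libraries was left out (adjusted p = 0.0589 to 0.228, log2 change 1.15 to 1.56), nor with upper quartile factors (0.0579) or with the sample code digit as a term (0.0870). At 0.1 µM it was at 0.69 ± 0.26 (edgeR adjusted p = 0.802) and at 10 against 1 µM at -0.90 ± 0.24 (0.0875). With the fit limited to the 12 libraries other than 100 µM the last of these was called (edgeR adjusted p = 0.0486), and with the code digit added as a term to that fit it was at -0.28 ± 0.51 (0.879).

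No other gene of the 65 was called by edgeR in the fit of all 15 libraries without a replicate block. AT3G11780 was at 1.33 ± 0.29 at 0.1 µM against the controls (edgeR adjusted p = 0.445), higher in 3 of 3 libraries, and at 0.97 ± 0.32 at 1 µM (0.411). GDH2 was at -1.20 ± 0.33 for 10 against 1 µM (0.104), a difference that DESeq2 called (adjusted p = 0.0200), as did edgeR with the replicate number as a block (0.0144). With the code digit as a term it was at -1.86 ± 0.60 (edgeR adjusted p = 0.175). ASP3 was at -0.64 ± 0.20 in that comparison (0.165), AT3G15450 at 0.70 ± 0.27 (0.289) and PSAF at -0.51 ± 0.23 (0.395). PSAF was at 0.69 ± 0.23 for 1 µM against the controls (0.421) and SCAMP5 at -1.17 ± 0.34 for 0.1 µM (0.715). For 10 against 1 µM the values of GDH2 and ASP3 were negative and that of AT3G15450 positive, and none of these 3 genes passed the threshold in the fit of all 15 libraries.

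As a group, the 65 genes had a median log2 change of -0.35 for 10 against 1 µM, where all genes had -0.01. Of the 65, 18 were positive, or 27.7%, beside 48.8% of all genes. The median was -0.23 for 10 µM against both the controls and 0.1 µM, 0.18 for 1 against 0.1 µM, 0.06 for 1 µM against the controls and -0.03 for 0.1 µM against them, with all genes within 0.01 of 0. Of the 37 genes that passed the filter without 100 µM, 9 were positive for 10 against 1 µM in the fit of 12 libraries. Their median was -0.32 there, where all genes had -0.003. It was -0.35 for 10 µM against the controls, -0.22 for 10 against 0.1 µM and 0.18 for 1 against 0.1 µM. For 1 and 0.1 µM against the controls it was -0.12 and -0.21, so the sign at 1 µM differed from that over all 65. The highest mean among the 4 lower groups was that of 1 µM in 28 genes, of the controls in 20, of 0.1 µM in 12 and of 10 µM in 5. No such count over all genes is given here, so nothing is read from it. Tissue markers also differed between these groups: the summed root markers lay at 53.4 to 88.6 CPM at 10 µM, 94.7 to 114 CPM at 1 µM, 108 to 139 CPM at 0.1 µM and 69.5 to 94.7 CPM in the controls. The summed mesophyll markers lay at 18379 to 19956 CPM at 10 µM and 20770 to 21510 CPM at 1 µM. LHCB3, a light-harvesting protein gene among them, read 464 to 553 CPM at 10 µM and 964 to 1400.1 CPM at 1 µM. The part of these markers in the medians was not tested. The comparisons share libraries, and those of 10 µM with the other doses coincide with a change of the code digit from 7 to 8. Single genes had a median standard error of 0.49 to 0.54 in these comparisons, so log2 changes of that size were not detectable for a single gene at this depth.

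**Figure D4:**
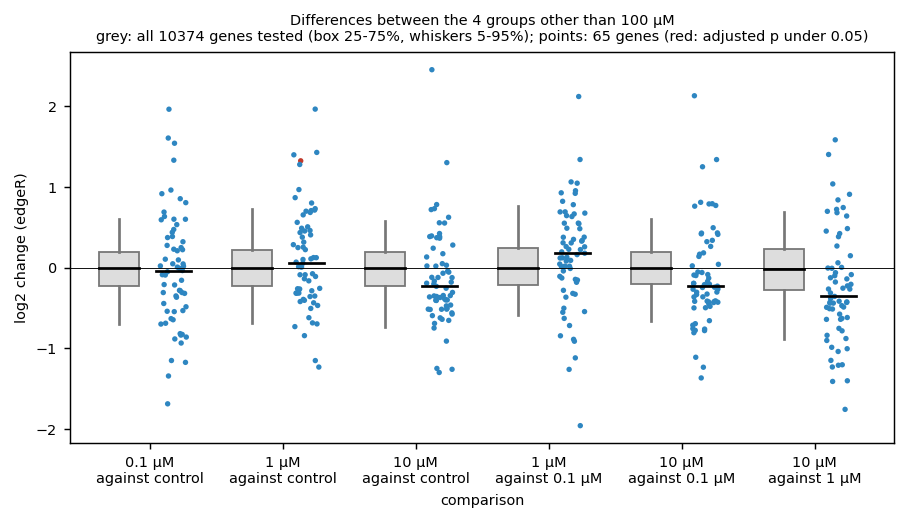
Log2 change by edgeR (vertical axis) in the 6 comparisons among the groups other than 100 µM (horizontal axis); boxes show all 10374 genes tested and points the 65 genes, with a bar at their median. The single red point is PIP3 at 1 µM against the controls, at 1.33.

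Many of these genes have a relative, close or distant, whose level can be set beside theirs. The closest protein outside the 65, by sequence, was found for 50 genes and was 49 different genes, at a median identity of 56.8%. For 21 of the 50 the identity was 70% or more. Some of the closest relatives were not tested, among them SAR2 (94.3% identity to SAR1B), PIP2;8 (91.8% to PIP3) and PBD2 (86.9% to PBD1). Of 33 relatives tested, edgeR called 12 higher at 100 µM than in the controls, or 36.4%, and 4 lower, or 12.1%, beside 18.1 and 14.6% of all genes. Their median log2 change was 0.43, against -0.02 over all genes. Without replicate 1 of 100 µM, 13 were higher and 3 lower.

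Relatives that rose included GDH1, BT1, ANNAT2, OPT4, WRKY54 and ATPC1. GDH1, the other glutamate dehydrogenase with 80.5% identity to GDH2, read 309, 551 and 474 normalized counts in the controls and 701, 1016 and 1075 at 100 µM (1.05 ± 0.22, SE). BT1, with 75.3% identity to BT2, read 4.75, 20.6 and 10.11 and 71.2, 90.1 and 128 (3.07 ± 0.45). ANNAT2, with 64.04% identity to ANNAT1, read 15.2, 8.46 and 19.1 and 127, 101 and 123.0 (3.01 ± 0.33). In all 3 of these genes every library at 100 µM lay above every control library. More distant were OPT4 (52.7% identity to OPT1), WRKY54 (45.3% to WRKY70) and ATPC1, the gamma subunit of the chloroplast ATP synthase (31.7% to ATP3). OPT4 changed by 2.03 ± 0.20, WRKY54 by 2.37 ± 0.44 and ATPC1 by 2.46 ± 0.26. AT5G43830, the closest relative of both AT3G15450 (46.6% identity) and AT4G27450 (47.0%), changed by 0.60 ± 0.13. The edgeR adjusted p-values of these 7 relatives lay between 6.16e-07 and 0.00184.

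Other relatives fell at 100 µM. AT2G20450, the second L14 gene with 93.3% identity to AT4G27090, read 55.1, 54.4 and 55.1 normalized counts in the controls and 17.8, 12.6 and 7.82 at 100 µM (-2.20 ± 0.28, edgeR adjusted p = 1.14e-05). Counts of 3' ends do not scale with transcript length. In the L14 pair, AT2G20450 was the higher of the 2 counts in every library of the other 4 groups and AT4G27090 in every library at 100 µM. KCS3, with 79.4% identity to KCS12, read 178, 161 and 171 and 19.2, 44.00 and 28.4 (-2.54 ± 0.23, adjusted p = 2.43e-07). SC3, with 56.8% identity to SCAMP5, read 318, 498 and 305 and 90.4, 180.2 and 199 (-1.26 ± 0.25, adjusted p = 0.000769). GA2OX8, a gibberellin oxidase with 32.7% identity to AT5G58660, changed by -2.13 ± 0.78 (adjusted p = 0.0437).

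**Figure D5:**
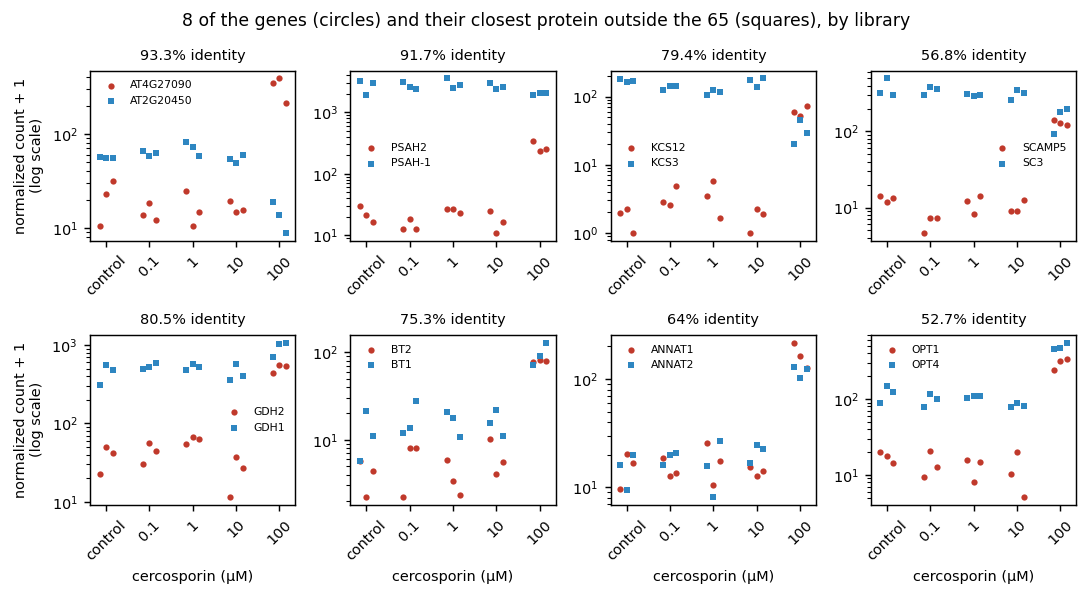
Normalized count + 1 (vertical axis, log scale) by cercosporin dose (horizontal axis, in µM) for 8 of the genes (red circles) and the closest protein outside the 65 (blue squares), 3 libraries per group, with the protein identity above each panel. In the L14 panel, AT4G27090 at 213 to 390 normalized counts lies above AT2G20450 at 100 µM and below it in all other libraries.

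Still other relatives passed no threshold. PSAH-1, with 91.7% identity to PSAH2, read 3192, 1883 and 3021 normalized counts in the controls and 1891, 2026 and 2028 at 100 µM (-0.46 ± 0.19, edgeR adjusted p = 0.0656). AT5G07090, the near-identical copy of AT2G17360 with 99.2% identity, read 681, 705 and 687 and 207, 725 and 879 (-0.20 ± 0.31, adjusted p = 0.651), with replicate 1 far below the other 2. ASP2 changed by 0.017 ± 0.39 (0.980) and TRXF2 by 0.55 ± 0.22 (0.0641). E1 ALPHA of pyruvate dehydrogenase, with 29.5% identity to AT1G21400, changed by 0.0028 ± 0.30 (0.997).

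The 65 genes encode proteins with a median length of 277 amino acids, against 390 for all nuclear genes and 358 for the 4875 nuclear genes with as high a mean at 100 µM. The median transcript length was 1390 bases, against 1757 and 1677, with a median of 4 exons in each set. Chromosomes 1 to 5 hold 19, 14, 12, 6 and 14 of them, out of 3660, 2174, 2792, 2192 and 3285 nuclear genes in that order. Pairs within 10 genes of each other included PPa1 and AT1G01080, 3 genes apart, and DI19 and SAR1B, 5 apart. No background for such pairs is given here. In 20 of the 65, or 30.8%, the 3' end lies inside another annotated gene, against 24.4% of all nuclear genes; AT3G15450, OPT1, PSAH2 and AT3G11780 are among them. Whether counting used strand is not given in the sources used here, so reads of such overlapping genes may not be told apart.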

How the data were processed

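Whole-seedling RNA of 15 samples was profiled by bulk MARS-seq, per the labels' protocols. Per the submitters' processing notes, bcl2fastq 2.17.1.14, cutadapt 1.8.3, STAR, HTSeq and DESeq2 were used; genome build, annotation and strandedness: not given in the sources used here. The deposited counts are raw reads per gene, per the file headers without a filter on unique molecular identifiers. Levels called normalized counts are the authors' second set of columns, a signal in which each library's raw counts were divided by a single size factor. Depth was 834190 to 4554702 counts per library, and counting error is a lower limit of the true error. The table held 0 per-sample columns of other samples.

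The rule was applied to the normalized values of nuclear genes. Raw counts were fitted in R 4.3.3 with edgeR 4.0.16, using TMM factors, filterByExpr against low counts, a group term over all 15 libraries, and quasi-likelihood tests, with Benjamini-Hochberg adjusted p under 0.05 over all genes as the threshold. Fold changes are log2 with standard errors. The slope on log10 dose used the 9 libraries of 0.1 to 10 µM. Alternatives included DESeq2 1.42.0. The scripts were tested on simulated data. CPM were used for marker genes only.

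RefSeq TAIR10.1 gave symbols, product names, promoters and proteins by locus tag; all 14103 nuclear identifiers matched. Near-identical copies share at least 75 bases at 90% identity within the last 500 bases of the transcript (BLAST 2.17.0), and the closest protein had to cover at least 50% of the query. No coordinates are printed, since the sources name no build. The genes, the families, the motifs and the tests were chosen with earlier results of these data known; the roles were assigned, and 2 word patterns of the product classes corrected, after the names of the 65 were seen. Any of the 65 could be named under the naming rule: largest ratios, highest means, members of each class, genes called among the lower groups, those next to the limit, those of widest and narrowest spread, and those with the closest relatives; other members are named to account for the rest, except 2 whose single values are not reported here. Over 30 pairs of same-numbered libraries, deviations from the group means correlated at -0.137 to 0.268 and passed 0.1 in 6 pairs. Differently numbered pairs ran from -0.268 to 0.204. The replicate number was not used as a pairing in the main fit, and a fit with it as a block is among the alternatives.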

Additional observations from a re-analysis of the deposited data

How the results depend on the processing

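Of 391 alternatives run over all results, 355 left the direction and the side of the threshold as they were, moved a count by at most 1.5 times or moved a share of counts by less than 1 SD; none reversed a direction. The number of genes picked depends on the pseudocount: it was 319 with 1, all 65 among them, and 23 with 10. On TMM-scaled CPM in place of the normalized values it was 21, all of the 65; the 5 added in the rule is then 5 CPM, so the weight of the pseudocount changes along with the scaling. Leaving out any 1 library gave 59 to 68 genes, and 50 genes were picked every time. For 1 µM against the controls the single call was 0 with upper quartile factors, with the code digit as a term and when any 1 library was left out (0 to 0). For 10 against 1 µM the count of 0 became 1 in the fit of 12 libraries (PIP3), with DESeq2 and with the replicate block (GDH2 in both). The replicate block changed no other call among the lower groups. Without the most abundant gene, PSAF, the share of nuclear counts was 0.0394% in the controls, 0.0363, 0.0414 and 0.0332% at 0.1, 1 and 10 µM and 0.516% at 100 µM. The alternatives for families and relatives were added after the data were seen: photosynthesis genes called lower at 100 µM, 6 in the test reported, were 11 without the filter on low counts and 11 with the replicate block, and 3 to 11 when 1 library was left out; aquaporin genes called lower, 5 in the test reported, were 3 to 6. Relatives called higher ranged from 11 to 14 and lower from 3 to 5. Genes with few counts in the lower groups limit what can be seen there: 24 averaged under 5 normalized counts over the other 12 libraries.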
